A study of Saccharomyces cerevisiae with 6 samples.

Results

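The genes described are the 6 plasma membrane sensors of cell wall stress in budding yeast (Saccharomyces cerevisiae): SLG1, also called WSC1, with its relatives WSC2, WSC3 and WSC4, and MID2 with its relative MTL1. They were chosen by name, as the probe sets annotated to exactly 1 of these genes, and each of the 6 had 1 probe set among 5498 probe sets of 5449 S. cerevisiae genes. Transcripts were measured on 6 Affymetrix oligonucleotide arrays, 1 per culture, with 3 arrays per group. In the OGT2468 group, wild-type cells in mid-log phase spent 3 h with 0.1 µM OGT2468, for which the labels give a code name alone. In the DMSO group, wild-type cells in the same phase spent 3 h with 0.1% DMSO and no OGT2468. For the OGT2468 cultures the sample information used here gives no DMSO percentage. The labels call the cells wild type and give neither the parent strain nor the mating type.

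Wsc1, Wsc2, Wsc3, Mid2 and Mtl1 are single-pass membrane proteins whose serine- and threonine-rich outer parts carry O-linked mannose and reach into the cell wall. The Wsc proteins carry a cysteine-rich domain at the outer end, and Mid2 and Mtl1 lack it. When the wall is strained, their inner tails recruit the exchange factors Rom1 and Rom2, which load the small GTPase Rho1 with GTP. Rho1 then activates the protein kinase Pkc1 and, through it, the kinases Bck1, Mkk1 and Mkk2, and Slt2, which acts on the transcription factor Rlm1 and the factor Swi4 with its partner Swi6. Wsc1 and Mid2 are the main sensors of this cell wall integrity pathway. Wsc4 overlaps with Wsc1 to Wsc3 in function in part, and it has also been placed in the membrane of the endoplasmic reticulum, where it was linked to protein translocation.

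None of the 6 sensor transcripts passed the test, limma on log2(intensity + 16) after quantile normalization, at a Benjamini-Hochberg adjusted p under 0.05 over 8968 probe sets. Of all tested probe sets 2.59% passed, 1.83% higher and 0.758% lower, so a count of 0 of 6 is near the background. At an unadjusted p under 0.05 there were 2 sensors, WSC4 and MID2, beside 16.4% of all tested probe sets. WSC4 had the most negative change of the family, at -0.82 ± 0.24 (SE, n = 3 per group), and the other 5 lay between -0.11 and 0.22. In bulk cultures a lower level in every cell and fewer cells with the transcript cannot be told apart. The median change of the 6 was 0.16, beside -0.01 over all tested probe sets and -0.02 over the named S. cerevisiae probe sets. With no scaling between arrays the sensor median was -0.11. In that setting it was -0.19 over all tested probe sets and -0.27 over the named ones.

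Arrays differed in brightness, which bears on the signs of the small changes. The median intensity of the named probe sets lay between 691 and 842 on the OGT2468 arrays and between 786 and 1150 on the DMSO arrays (exact two-sided permutation test, p = 0.2, where 0.1 is the smallest value 3 against 3 arrays can give). Background, taken as the 98th percentile of probe sets of another species, was 21.8 to 25.9 intensity units. All 6 sensors were above it on all 6 arrays. The log2 ratio of the 3' to the 5' probe set of ACT1, a sign of RNA quality, was 0.33 to 0.41 in OGT2468 and 0.30 to 0.35 in DMSO (exact p = 0.3). The same ratio was larger for SPT15, at 1.102 to 1.299 in OGT2468 and 0.9299 to 1.432 in DMSO (exact p = 0.8). It was largest for SRB4, at 2.2265 to 2.3042 in OGT2468 and 2.1156 to 2.4637 in DMSO. For SPT15 and SRB4 the OGT2468 range lay within the wider DMSO range. The part of these ratios in the results was not tested.

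SLG1 encodes Wsc1, one of the main sensors of the pathway. Its normalized intensity was 1380, 1361 and 1416 on the OGT2468 arrays, against 1535, 1469 and 1486 on the DMSO arrays. The 3 OGT2468 arrays all lay below the 3 DMSO arrays, by a narrow margin, and arrays of the same group were close to each other. The log2 change was -0.11 ± 0.06 (SE, n = 3 per group, limma adjusted p = 0.400), with a 95% interval from -0.25 to 0.03, which corresponds to between 0.843 and 1.02 times the DMSO level. The scatter of SLG1 within groups was small: only 4.27% of the 5195 named probe sets above background on every array had a smaller residual SD.

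MID2, the other main sensor, lay on the opposite side. Its normalized intensity was 1942, 2151 and 2068 on the OGT2468 arrays, against 1746, 1636 and 1899 on the DMSO arrays. The groups did not overlap after normalization, but they did in the deposited intensities, at 1978, 1854 and 1665 in OGT2468 and 1825, 1574 and 2458 in DMSO. The change was 0.22 ± 0.08 (SE, n = 3 per group, limma adjusted p = 0.260; unadjusted p = 0.0337), with a 95% interval from 0.02 to 0.42, and it was -0.07 with no scaling between arrays. The upper end of that interval corresponds to 1.34 times the DMSO level.

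MTL1 encodes the relative of Mid2. Its normalized intensity was 276, 304 and 238 on the OGT2468 arrays, against 225, 279.9 and 226 on the DMSO arrays. Here the groups overlapped, since DMSO replicate 2 exceeded OGT2468 replicates 1 and 3. The change was 0.15 ± 0.12 (SE, n = 3 per group, limma adjusted p = 0.609), with a 95% interval from -0.15 to 0.46, and it was -0.09 with no scaling and 0.00 with scaling on the hybridization controls.

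WSC2 and WSC3, which share parts of the work of Wsc1, had changes of similar size to each other. WSC2 had normalized intensities of 1673, 1879 and 1902 in OGT2468, against 1559, 1604 and 1648 in DMSO. WSC3 had 955, 976 and 955 in OGT2468, against 800.0, 825 and 949.98 in DMSO. Both sets of groups stood apart, though for WSC3 DMSO replicate 3 came within a few units of the OGT2468 arrays. The changes were 0.18 ± 0.07 for WSC2 (limma adjusted p = 0.309; 95% interval 0.00 to 0.36) and 0.17 ± 0.08 for WSC3 (limma adjusted p = 0.385; 95% interval -0.03 to 0.36; SE, n = 3 per group). With no scaling both had the opposite sign, at -0.11 each, as they did with scaling on the hybridization controls, at -0.01 for WSC2 and -0.02 for WSC3.

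WSC4 had the widest gap between its group means. Its deposited intensities were 85.9, 160 and 117 on the OGT2468 arrays, against 224, 255 and 324 on the DMSO arrays. After normalization they were 87.5, 175 and 145 in OGT2468, against 213, 284 and 240 in DMSO. On both scales every OGT2468 array lay below every DMSO array, and OGT2468 replicate 1 was the lowest of all. The change of -0.82 ± 0.24 (SE, n = 3 per group) corresponds to 0.566 times the DMSO level, with a 95% interval from 0.376 to 0.852 times, and did not pass (limma adjusted p = 0.167; unadjusted p = 0.0146).

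Of the 8968 tested probe sets 34 had a more negative change than WSC4, and 25 of those 34 passed the test in that direction. The spread of WSC4 within its groups was wide. Its residual SD exceeded that of 99.5% of the named probe sets above background on every array, and its log2 level was 7.20 ± 0.46 in OGT2468 and 8.02 ± 0.19 in DMSO (SD, n = 3). With an SE of this size and at the reported settings a change of 1.38 in either direction would have been needed to reach the highest unadjusted p among the calls (0.00129), whereas 0.32 would have been enough for SLG1, 0.42 for WSC2, 0.46 for WSC3, 0.46 for MID2 and 0.71 for MTL1. With no scaling between arrays the change of WSC4 was -1.07 and passed (limma adjusted p = 0.0295), in a setting where 0.491% of all tested probe sets passed lower and the median of the named probe sets was -0.27. Without OGT2468 replicate 1 the change was -0.57 (limma adjusted p = 0.183), and over the 15 alternatives of this fit the adjusted p lay between 0.0295 and 0.319.

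**Figure D1:**
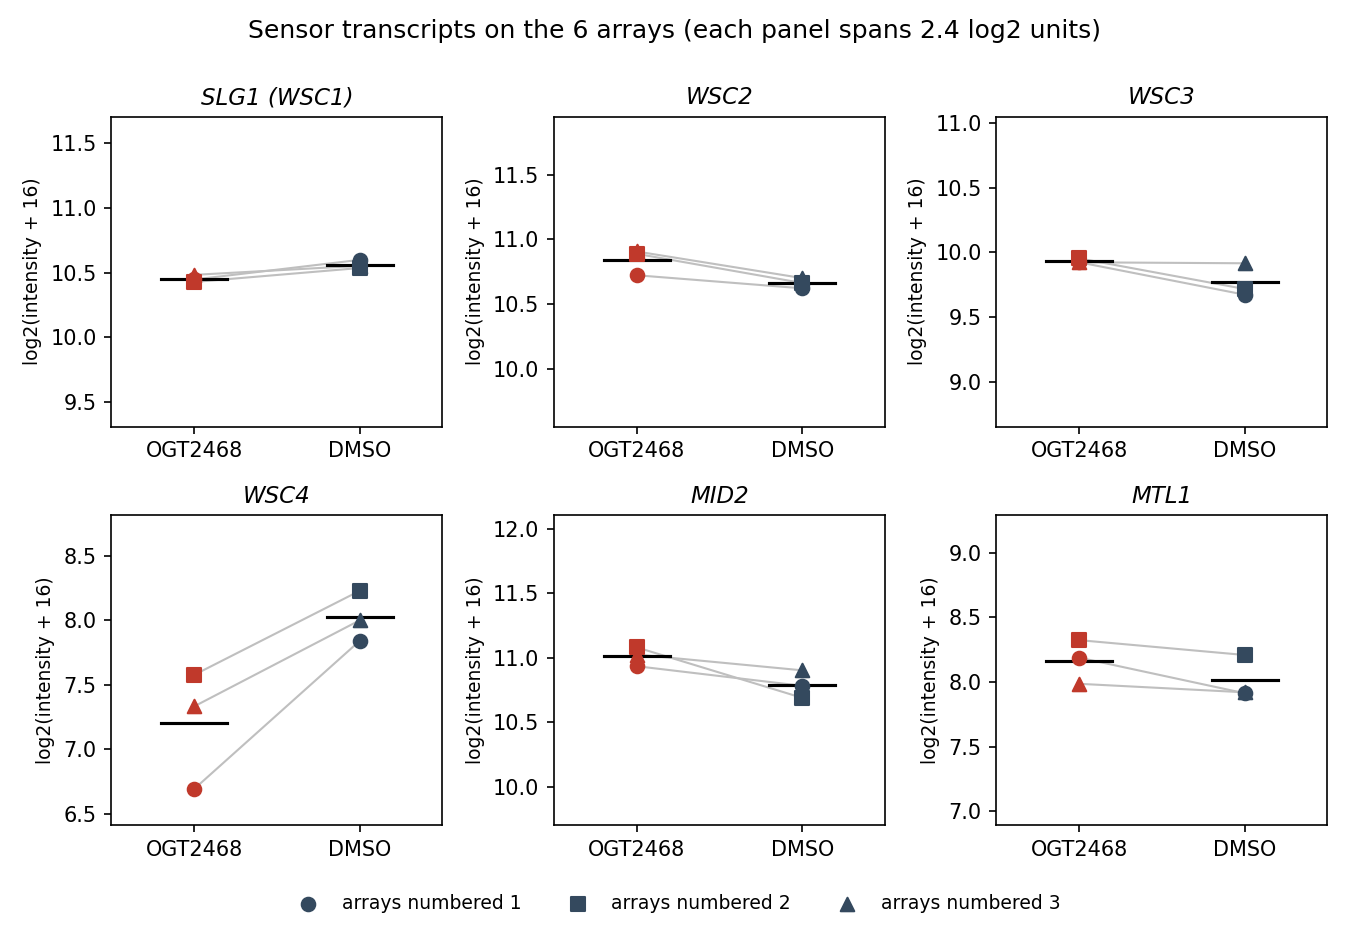
Normalized level of each sensor transcript, as log2(intensity + 16), on the OGT2468 arrays (red, left) and the DMSO arrays (dark, right) of 3 cultures each. Symbols and grey lines join arrays of the same replicate number, black bars are group means, and all panels span the same range, so the distance between groups is widest for WSC4 at -0.82 and small for the other 5.

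Over the family, the OGT2468 and DMSO arrays did not overlap for 5 of the 6 sensors after normalization, 2 of them lower (SLG1, WSC4) and 3 higher (WSC2, WSC3, MID2). Among all probe sets tested, 24.1% had groups that stood apart, 12.1% with OGT2468 lower and 12% with OGT2468 higher. In the deposited intensities the groups were apart for 2 sensors, SLG1 and WSC4, both lower, beside 20.7% of all tested probe sets and 17.7% with OGT2468 lower. The labels state no pairing, and the calls reported here come from the unpaired fit. As an alternative the arrays were paired by replicate number. Within pairs of the same number SLG1 was lower in OGT2468 in 3 of 3, by log2 differences of -0.15, -0.11 and -0.07. WSC4 was also lower in 3 of 3 pairs, at -1.15, -0.65 and -0.67. WSC2, WSC3, MID2 and MTL1 were each higher in 3 of 3 pairs after normalization, with the smallest difference at 0.01 for WSC3 in the pair numbered 3. Over all tested probe sets 19.6% were higher and 22.5% lower in all 3 pairs. With the replicate block none of the 6 passed, and the adjusted p of WSC4 was 0.134.

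Within each array the WSC4 level was set against each other sensor, which removes any scaling factor common to the array. The level of WSC4 minus that of the other gene, compared as OGT2468 minus DMSO, ran from -0.71 ± 0.30 against SLG1 to -1.04 ± 0.27 against MID2 (SE, n = 3 per group). Against WSC2, WSC3 and MTL1 it was -0.999, -0.986 and -0.973. In all 5 comparisons the groups of arrays were apart, and each gave an exact two-sided permutation p of 0.1, the smallest possible with 3 against 3 arrays, and 0.1 after adjustment over the 5. No such comparison could reach a p under 0.05. WSC4 was also set against the others after its values were seen, so the differences are given as a description.

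**Figure D2:**
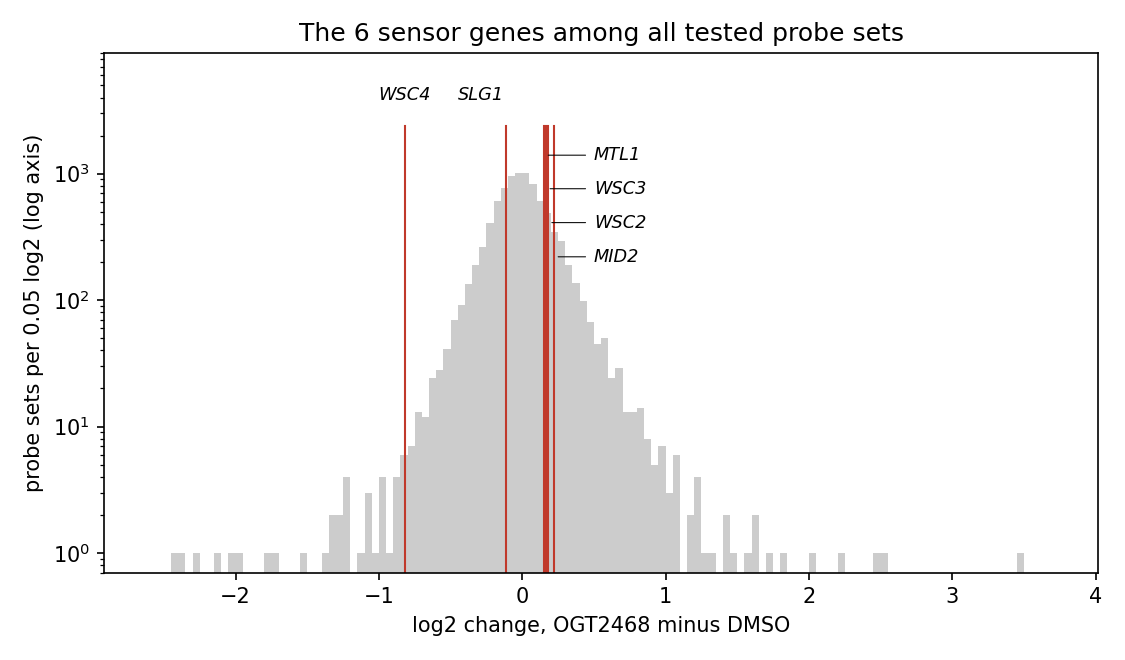
Number of probe sets (log axis, bins of 0.05) by log2 change, OGT2468 minus DMSO, over all 8968 tested probe sets, with red lines at the 6 sensors. SLG1, WSC2, WSC3, MID2 and MTL1 lie in the body of the distribution, while WSC4 lies in the lower tail with 34 probe sets below it.

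The genes between the sensors and the kinase Slt2 were examined from lists of pathway members. All these lists were written with earlier results of these data known, so counts within them are a description. Of all tested probe sets 1.83% were called higher. Of 4 genes whose products modify or bind the sensors 1 rose: PMT1, a protein O-mannosyltransferase, at 0.47 ± 0.06 (SE, n = 3 per group, limma adjusted p = 0.0150). Its adjusted p was 0.107 with the replicate block and 0.523 with no scaling (change 0.21), and the call was lost in each of the 6 fits without 1 array. PMT2 (0.29) and PMT4 (0.03), of the same enzyme family, did not pass, nor did ZEO1 (-0.01), whose product binds Mid2. Among 9 genes of Rho1 and its regulators, RHO1 had a change of 0.08, the exchange factor genes ROM1, ROM2 and TUS1 had 0.00, 0.01 and 0.05, and none of these 4 passed. Nor did SAC7 (0.17), BEM2 (-0.18) and LRG1 (-0.04), whose products switch Rho1 off, or RDI1 (0.01), which encodes an inhibitor of Rho1. BAG7, which encodes a GTPase-activating protein of Rho1, was the 1 gene of that group to rise, and it was at background on the DMSO arrays. Its level was at least 2.15-fold higher in OGT2468 (limma adjusted p = 0.0307; 0.107 with the replicate block), a call that held in 1 of the 6 fits without 1 array.

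Of the 6 kinase genes 2 rose and 4 did not pass. PKC1 (-0.11), BCK1 (-0.08), MKK1 (0.03) and MKK2 (-0.17) lay between -0.17 and 0.03. SLT2, the last kinase of the cascade, had normalized intensities of 4871, 4724 and 5126 in OGT2468, against 2164, 2480 and 2222 in DMSO, and its change was 1.10 ± 0.08 (SE, n = 3 per group, limma adjusted p = 0.00285; 0.0527 with the replicate block and 0.0558 with no scaling). The 95% interval of SLT2, from 0.91 to 1.28, lay above the upper end of the interval of every sensor, of which the highest was 0.46 for MTL1. KDX1, related in sequence to SLT2, had the larger change of the 2, at 2.50.

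Of the 3 transcription factor genes RLM1 rose by 0.41 (limma adjusted p = 0.0436; 0.135 with the replicate block and 0.743 with no scaling, at a change of 0.13), a call lost in all 6 fits without 1 array, and SWI4 (-0.18) and SWI6 (-0.16) did not pass. Of the 4 genes of phosphatases that act on such kinases, PTP2 rose by 0.97 (limma adjusted p = 0.00201; 0.04997 with the replicate block). That call was lost with no scaling between arrays, where the change was 0.69 (limma adjusted p = 0.149). The other phosphatase genes MSG5 (0.16), SDP1 (-0.12) and PTP3 (0.18) did not pass. The 14 genes of the wall itself at the output of the pathway were also listed with earlier results of these data known. Their median change was 0.49, beside -0.01 over all tested probe sets. Of all tested probe sets 1.83% rose and 0.758% fell, and of these 14 genes 7 rose and none fell. They were PIR3 (3.48) and CWP1 (0.83), which encode wall proteins, YPS3 (2.47), a surface aspartic protease gene, GSC2 (0.98), a glucan synthase gene, CRH1 (0.83), which encodes an enzyme that joins chitin to glucan, PST1 (0.84) and PRM5 (0.73). With the replicate block 3 rose (PIR3, YPS3 and GSC2), beside 0.301% of all tested probe sets. The count was 3 when arrays were scaled on the hybridization controls, where 45 of 8968 probe sets were called higher. It was 2 without any scaling, where 0.245% of all tested probe sets were called higher. The other 7 wall genes had changes from 0.11 for FKS1 to 0.25 for CHS3, a range that overlaps the changes of WSC2, WSC3, MID2 and MTL1.

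**Figure D3:**
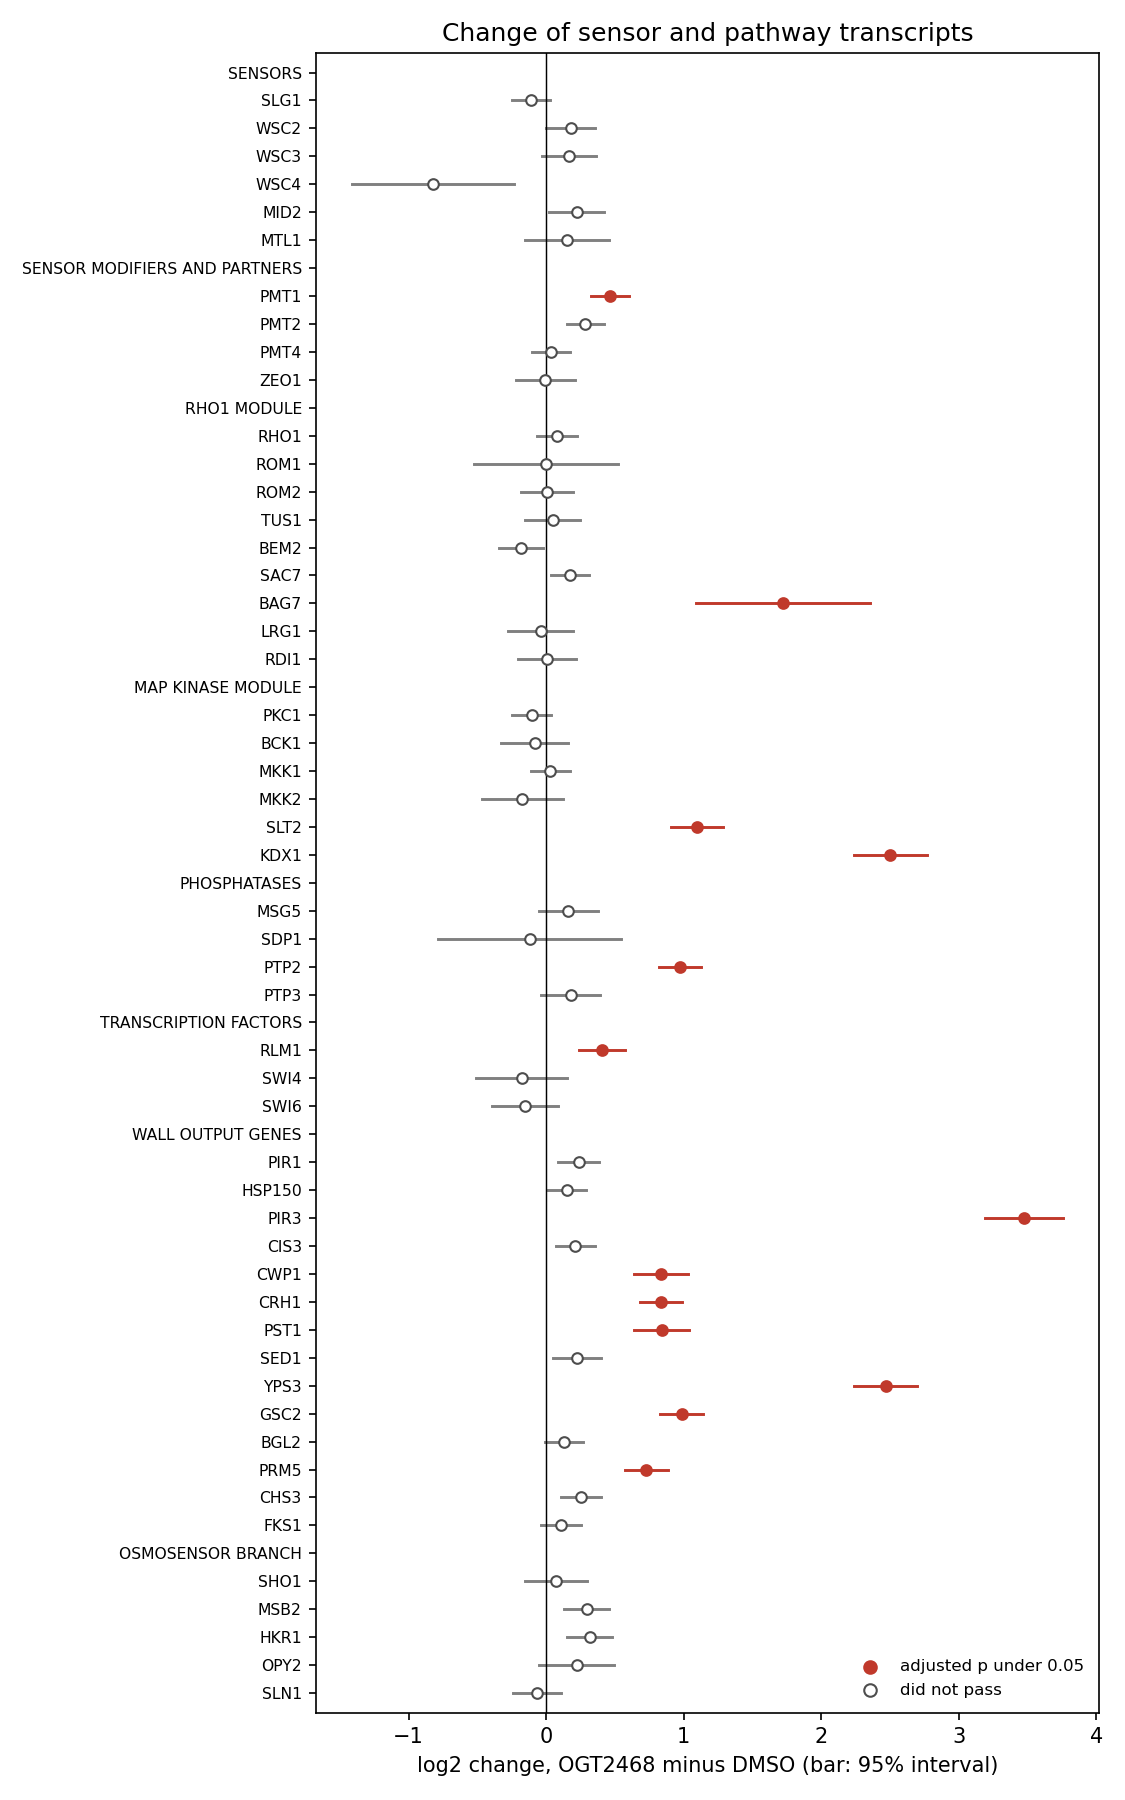
Log2 change, OGT2468 minus DMSO, with its 95% interval for the 6 sensors and for 45 genes of the pathway lists, grouped by role. Filled red points passed at an adjusted p under 0.05: none of the sensors, and SLT2, KDX1, BAG7, PTP2, RLM1, PMT1 and 7 wall output genes.

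A second set of mucin-like or membrane sensors, those that feed the osmotic stress kinase Hog1, was also measured. None of the 5 passed in limma, and 2 had an unadjusted limma p under 0.05, beside 16.4% of all tested probe sets. The median change of the 5 was 0.22, beside 0.16 for the wall sensors. HKR1 (0.32, limma adjusted p = 0.0876) and MSB2 (0.29, limma adjusted p = 0.0998), which encode the mucin-like sensors, had the lowest p, followed by OPY2 (0.22), a membrane anchor, and the histidine kinase gene SLN1 (-0.07). HKR1 and MSB2 passed in 3 of the 15 alternatives each, and their difference from the wall sensors was not tested.

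The genes next to each sensor in the R64 gene order were looked up by name. Beside WSC4 stand OCA5 (-0.14, limma adjusted p = 0.474) and RIM101 (0.16, limma adjusted p = 0.492), and neither passed. Of the 10 measured neighbours of the 6 sensors none passed in limma. At an unadjusted limma p under 0.05 there was 1, beside 16.4% of all tested probe sets. The most negative was NDJ1, beside WSC3, at -0.55 (limma adjusted p = 0.0523). JIP3, whose reading frame overlaps that of MID2, was not analysed here.

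The named genes whose log2 levels over the 6 arrays were most like those of a sensor were ranked by Pearson's r among 5257 genes above background on at least 3 arrays. For SLG1 they were TSR2, MTW1 and SYH1, with r from 0.981 to 0.984 and changes of -0.23, -0.21 and -0.14. For MID2 they were LDB17, ECM9 and YOR1, with r from 0.991 to 0.997 and changes of 0.38, 0.18 and 0.15. For MTL1 they were GNP1, YIP5 and NCE103, with r from 0.946 to 0.979 and changes of 0.09, 0.09 and 0.28. None of these 9 genes passed in limma, and 4 had an unadjusted limma p under 0.05, beside 16.4% of all tested probe sets. The 9 were picked for likeness to a sensor on these same arrays. So high an r is the top of a ranking over 6 arrays that share the 2 groups.

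**Figure D4:**
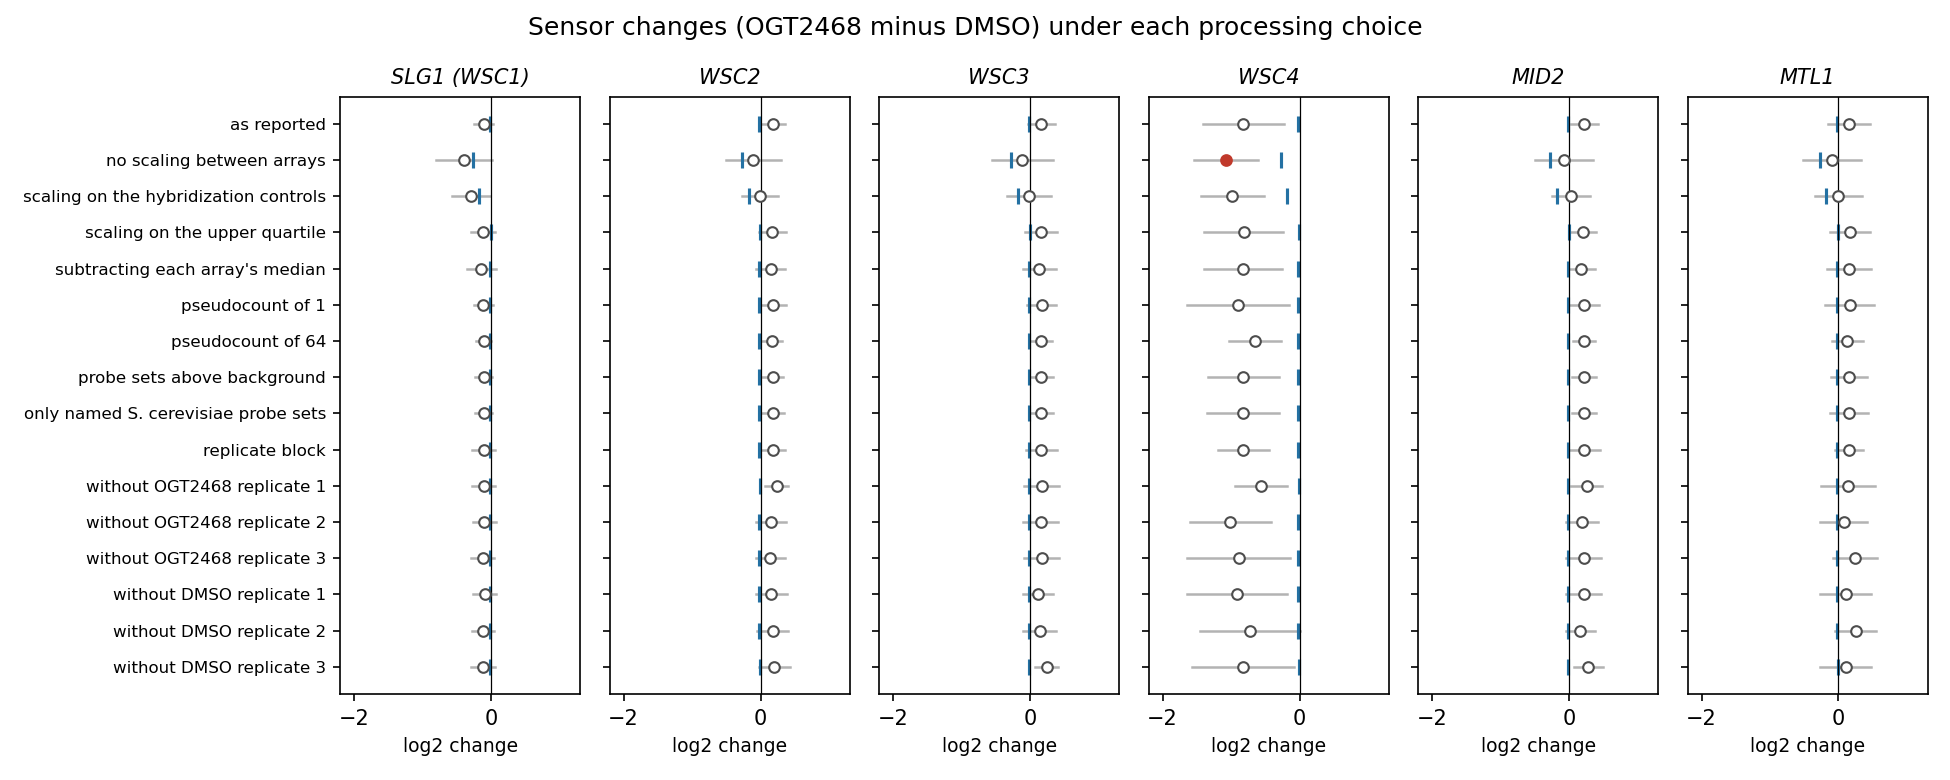
Log2 change, OGT2468 minus DMSO, of each sensor with its 95% interval under each processing choice (rows), with a blue tick at the median of the named probe sets and a filled red point where the adjusted p was under 0.05. WSC4 lies below 0 throughout and is filled with no scaling between arrays, and WSC2, WSC3, MID2 and MTL1 move to -0.07 or below in that setting, together with the median at -0.27.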

How the data were processed

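Total RNA of 6 cultures was hybridised to 6 arrays, per the labels' protocols. The authors deposited 1 linear intensity per probe set and array. The submitters' processing notes name GCRMA, but the deposited intensities are not on its log2 scale and their medians differ between arrays; summarisation and background correction are not given in the sources used here. Names came from the platform annotation and R64 gene symbols. The 10928 probe sets comprised 5498 with a single S. cerevisiae gene, 3470 unnamed, 1747 of another species and 213 controls. The first 2 classes, 8968 probe sets, were quantile normalized, a pseudocount of 16 was added, log2 was taken, and OGT2468 was compared with DMSO by limma 3.58.1 (lmFit and eBayes, R 4.3.3), with Benjamini-Hochberg adjustment at 0.05. The log2(value + 16) scale understates changes of dim probe sets, and normalizing by quantiles hides a difference in RNA content per cell. BAG7, at background in DMSO, is given as a bound: its OGT2468 mean over the mean, per DMSO array, of the higher of background and its own value.

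The sensors, the pathway lists, the settings and the rule for named genes were chosen with earlier results of these data known. Under that rule the 6 sensors, every list gene that passed (or the up to 4 with the lowest p where none did), and the 3 genes most like SLG1, MID2 and MTL1 were named. Outside the rule, many but not all of the list genes that did not pass, and some genes beside the sensors, were also named. Precision is limited by having 3 arrays in each group, which the design text calls biological samples. The labels state no pairing, so the reported fit was unpaired. Deviations from the group means correlated between same-numbered OGT2468 and DMSO arrays at 0.297, 0.186 and 0.159. Between arrays of different numbers the correlations ran from -0.194 to -0.018. Because the same-numbered values were positive, pairs by replicate number and a fit with the replicate block are given as alternatives. Deviations within a group cancel over its 3 arrays, so these correlations are tied to each other. In simulated data with 200 of 8968 probe sets changed, 74% of 2-fold and 37.5% of 1.41-fold changes were recovered. Unchanged probe sets made up 6.54% of the calls, which is above the threshold of 0.05. These shares are not those of any single sensor, since the log2 change needed ran from 0.32 for SLG1 to 1.38 for WSC4. Probe and protein sequences were not used here.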

Additional observations from a re-analysis of the deposited data

How the results depend on the processing

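Over 15 alternatives none of the 6 sensors was called higher, and 1 was called lower with no scaling between arrays, WSC4 at -1.073 (limma adjusted p = 0.0295). SLG1 and WSC4 were negative in all 15, but these are not independent checks. The replicate block and the fits to probe sets above background or to named ones used the values of the reported fit. In those fits the changes, and so the signs, could not differ. The fits without 1 array share most of their arrays. The signs that turned did so with no scaling, at -0.105 for WSC2, -0.113 for WSC3, -0.0697 for MID2 and -0.0935 for MTL1, and with scaling on the hybridization controls, at -0.00697 for WSC2, -0.0156 for WSC3 and -0.000304 for MTL1, none of which passed. The replicate block left 27 probe sets called higher and 14 lower, in place of 164 and 68, and called no sensor. With it the calls of SLT2, PMT1, BAG7, RLM1, CWP1, CRH1, PST1 and PRM5 were lost. Those of KDX1, PTP2, PIR3, YPS3 and GSC2 held. Counts of probe sets higher and lower were 22 and 44 with no scaling, 45 higher with control scaling (55 lower), 101 and 41 with arrays centred on their medians, 292 and 187 for a pseudocount of 64, 350 and 227 for probe sets above background, and 314 and 212 for named ones, the last 2 with fewer probe sets tested. Without any 1 array they were 61 to 91 higher and 28 to 40 lower. The exact permutation test gave 0.1 for 5 sensors and 0.3 for MTL1. No sensor had a second probe set, so that alternative gave no value. The cause of these shifts was not tested. The number of arrays limits the precision of all these values.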
